A study of Mus musculus with 9 samples.

Results

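The 9 marker genes of Kupffer cells and macrophages described here are Clec4f, Cd5l, Marco, Vsig4, Adgre1, Csf1r, Cd68, Lyz2 and Cd74. They were taken by name as known markers, with earlier results of these data in view, and all 9 were found among the 55335 genes of the hepatic expression table. With a mean FPKM (a fragment number corrected for transcript length and for how many fragments of that library mapped) of at least 1 over all mice, 7 of the 9 entered the gene-level test of 6755 genes. Marco and Adgre1 lay under this limit and are given by their value in each mouse.

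Liver RNA was sequenced from 9 male B6D2F2 offspring at 20 weeks of age after a fast of 4 h, with 3 mice in each group. The NC-chow mice came from natural pregnancy. The IVF-chow and FET-chow mice came from B6D2F1/J gametes joined in vitro after superovulation, and their 2-cell embryos were carried by pseudopregnant ICR females, transferred fresh in the IVF-chow group and after slow freezing and thawing in the FET-chow group. Both embryo transfer groups thus share superovulation, culture, surgical transfer and an ICR uterus, which cannot be told apart in their contrasts with the NC-chow group, and all mice ate normal chow. Sex and diet are those given in the methods. The comparisons ask whether fertilization in vitro, with or without freezing of the embryo, left a difference in the macrophage transcripts of the adult liver.

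Kupffer cells are the resident macrophages of the liver. They sit in the sinusoids, take up particles, complement-coated microbes and aged red cells from portal blood, and depend on signalling through the receptor Csf1r for their survival. Their identity rests on the myeloid factor PU.1 together with liver-specific factors such as Nr1h3 (LXRα). They are a minority of liver cells, so their transcripts are a small part of whole-liver RNA. In bulk tissue, fewer macrophages and less RNA per macrophage cannot be told apart.

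The libraries differed in depth and in composition. The estimated number of mapped fragments lay between 6520000 and 13130000 in the NC-chow mice, between 3820000 and 8280000 in the IVF-chow mice and between 1980000 and 2880000 in the FET-chow mice, so every FET-chow library was shallower than every other. Fewer were estimated to lie on nuclear protein-coding genes, 1100000 to 3560000 in the NC-chow mice and 620000 to 1470000 in the IVF-chow mice. In the FET-chow mice the estimate was 240000 to 590000. Nuclear protein-coding genes made up between 4.36% of the summed FPKM in IVF-chow mouse 2 and 29.3% in IVF-chow mouse 4, and 4.41% in FET-chow mouse 4. An FPKM therefore moved with this share. Values rescaled to the sum over nuclear protein-coding genes are given beside many results of the markers and lists. Single genes of the other lists are printed as deposited, and their order between mice can change on rescaling. A listed value of 0 is not proof of absence. Of 8 genes used by nearly every cell, FET-chow mouse 2 had 1 at a listed 0 (Pgk1) and so had FET-chow mouse 4 (Hprt). In the sentences that follow, 9 values are in the order NC-chow mice 1, 5 and 6, IVF-chow mice 2, 3 and 4, and FET-chow mice 2, 3 and 4.

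The labelled tissue held these transcripts, with 6 of the 9 markers above 0 in every mouse and Marco, Adgre1 and Cd68 listed at 0 in some. By mean FPKM over the 9 mice, which is per length and so can be compared between genes, the order of the levels was Clec4f (12.6), Cd74 (12.3), Lyz2 (10.2), Cd5l (8.43), Vsig4 (2.36), Cd68 (2.07), Csf1r (1.84), Marco (0.681) and Adgre1 (0.181). Neighbours within the first 4, and within the next 3, did not differ beyond the spread between mice, since Clec4f alone ranged from 1.89 to 33.8. Nor did Marco and Adgre1, whose order follows from FET-chow mice 2 and 3 and was the reverse by median over the 9 mice (0.0627 and 0.112).

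No marker passed the test in any comparison, and the clearest pattern was in Cd5l, whose 3 FET-chow values all exceeded its 3 NC-chow values. Cd5l (ENSMUSG00000015854, GRCm38 chr3:87357881-87371073, plus strand) encodes a secreted protein, also called AIM, that Kupffer cells release into the blood. Its FPKM was 3.76, 3.80 and 4.92 in the NC-chow group, 1.04, 7.37 and 4.79 in the IVF-chow group and 36.8, 7.97 and 5.44 in the FET-chow group. The FET-chow values all lay above the NC-chow values, though FET-chow mouse 4 exceeded the highest NC-chow mouse by little, and both groups overlapped the IVF-chow group. The group means were 4.16 ± 0.66, 4.40 ± 3.18 and 16.7 ± 17.4 FPKM (SD, n = 3). On the log2(FPKM + 1) scale, on which all fold changes are given and which understates the change of low genes, the difference of FET-chow from NC-chow was 1.34 ± 0.79 (SE), with a 95% interval from -0.25 to 2.93 (adjusted p 0.507, limma). Without FET-chow mouse 2 it was 0.57.

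Non-overlap of this kind was uncommon as deposited and less so after rescaling. Among all genes tested, 1.98% had their 3 FET-chow values above their 3 NC-chow values and 17.1% had them below. After rescaling to nuclear protein-coding genes, Cd5l was 4.04, 2.77 and 3.17 in the NC-chow group, 2.67, 6.80 and 2.10 in the IVF-chow group and 40.6, 6.21 and 12.1 in the FET-chow group. Its FET-chow and NC-chow values again did not overlap, but on that scale 9.99% of genes showed the same order and 11.5% the opposite one. Of the 9 markers, Cd5l was the only one with this order, on either scale. The FET-chow values rested on an estimated 148, 45 and 32 fragments, against 50, 91 and 132 in the NC-chow mice and 17, 66 and 37 in the IVF-chow mice.

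Marco, a scavenger receptor that binds bacteria and is found on Kupffer cells, stood out in 2 of the 3 FET-chow mice. Its gene (ENSMUSG00000026390) lies on the minus strand at chr1:120474538-120505024. The FPKM was listed at 0, 0.0807 and 0.0781 in the NC-chow mice, 0.0627, 0 and 0 in the IVF-chow mice and 3.65, 2.25 and 0 in the FET-chow mice. FET-chow mice 2 and 3 were above all 6 other mice of the NC-chow and IVF-chow groups, while FET-chow mouse 4 was listed at 0, so the groups overlapped. These values rest on very few fragments. The estimate was 14 fragments in FET-chow mouse 2 (exact 95% Poisson interval 7.65 to 23.5) and 12 in FET-chow mouse 3 (6.20 to 21.0), against 2 in each of NC-chow mice 5 and 6 (0.242 to 7.22) and 1 in IVF-chow mouse 2. Such intervals cover counting error only, and the fragment numbers of genes with several transcripts use the longest one. In FET-chow mouse 4 the interval was 0 to 3.69 fragments, and 3 fragments there would be 0.541 FPKM. The difference in mean log2(FPKM + 1) was 1.23 against NC-chow and 1.28 against IVF-chow, and the two-sided exact permutation test gave p = 0.4 for each, where 0.1 is the smallest p that 3 mice against 3 allow. In a limma fit of every detected gene the unadjusted p was 0.0376 and 0.0326 and the adjusted p 0.52 and 0.791. Of the 27411 genes in that fit, 2618 and 829 had an unadjusted p under 0.05 in these 2 comparisons.

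**Figure D1:**
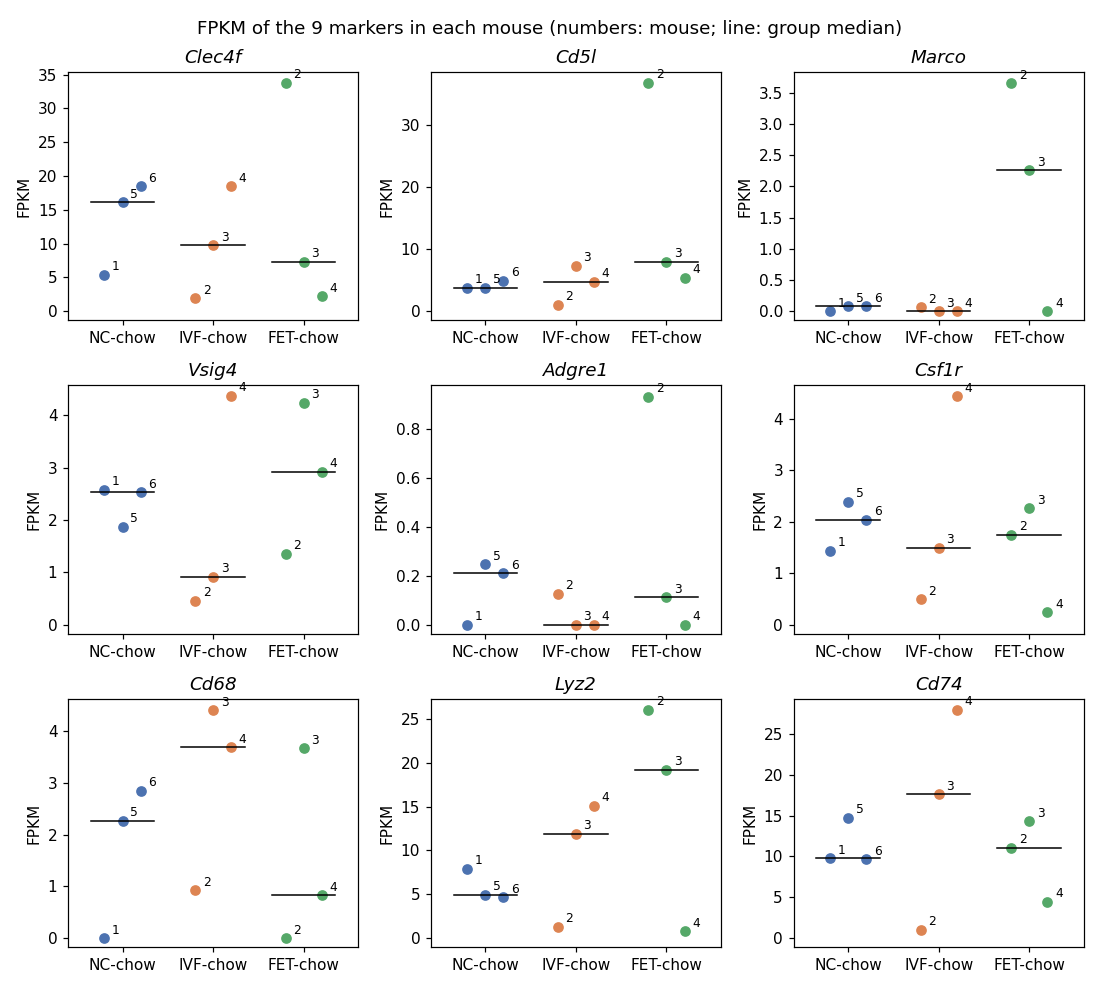
FPKM (linear vertical axis, different in each panel) of the 9 markers in each mouse, by group, with the mouse number beside each point and the group median as a line. FET-chow mouse 2 is the highest of the 9 mice for Clec4f, Cd5l, Marco, Adgre1 and Lyz2, and Cd5l is the panel in which all 3 FET-chow points lie above all 3 NC-chow points.

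**Figure D2:**
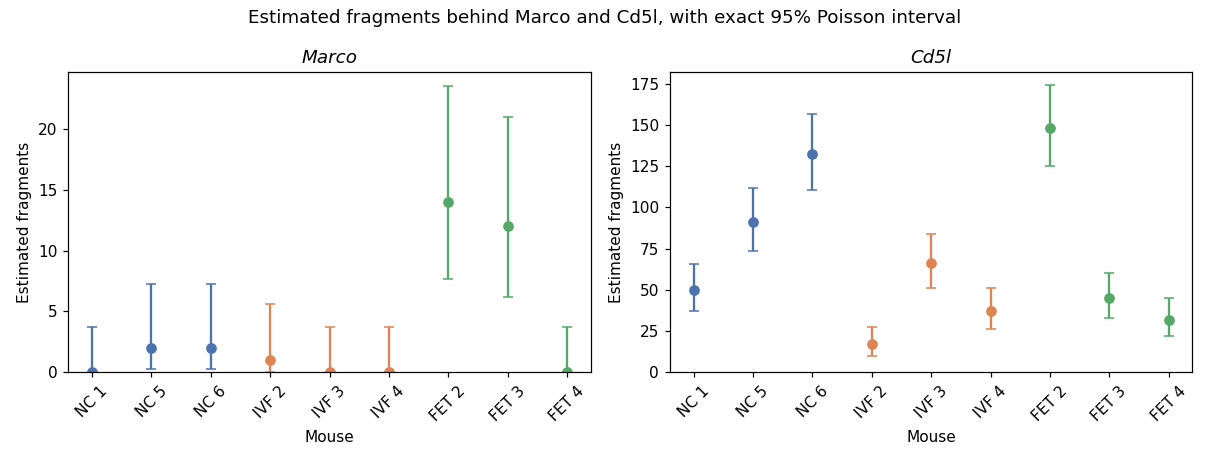
Estimated fragments (vertical axis, from 0) behind the Marco and Cd5l values of each mouse, with exact 95% Poisson intervals as bars. Marco rests on 14 and 12 fragments in FET-chow mice 2 and 3 and on 0 to 2 in the other mice, and Cd5l on 17 to 148 fragments.

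The sequence just before the start of these 2 genes, the markers with the highest FET-chow values relative to the NC-chow group, is shown because PU.1 is the factor that Kupffer cell genes are known to share. Each line gives the 250 bases before the RefSeq start, 5′ to 3′ on the gene's strand (RefSeq on GRCm38.p6, chr3:87357631-87357880 for Cd5l on the plus strand and chr1:120505025-120505274 for Marco on the minus strand), and capitals mark the PU.1 core GAGGAA or its reverse complement TTCCTC.
Cd5l: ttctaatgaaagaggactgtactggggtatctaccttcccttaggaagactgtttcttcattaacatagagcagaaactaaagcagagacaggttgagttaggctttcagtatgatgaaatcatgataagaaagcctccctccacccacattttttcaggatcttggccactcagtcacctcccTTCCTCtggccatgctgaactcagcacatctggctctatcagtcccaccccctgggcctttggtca
Marco: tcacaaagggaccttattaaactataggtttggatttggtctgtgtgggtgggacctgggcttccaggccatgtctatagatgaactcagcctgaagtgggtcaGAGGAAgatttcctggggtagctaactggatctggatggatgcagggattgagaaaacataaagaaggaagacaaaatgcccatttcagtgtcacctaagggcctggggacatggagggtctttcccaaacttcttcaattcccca
The core lay 66 bases before the start of Cd5l and 146 bases before that of Marco. Of the 9 markers, 6 had a window in the RefSeq table, and the core was found on either strand in 4 of them, Cd5l, Marco, Vsig4 and Cd68, and not in Clec4f or Lyz2. It is a short motif, found in 23.3% of the 32851 windows of this length. The AP-1 sequence TGAGTCA (4.46% of windows) was found in Cd68 alone of the 6, and the MAF sequence TGCTGAC (3.81%) in none. The AP-1 and MAF letters can overlap in 1 stretch, which none of the 6 windows holds, and a match is a description of the letters only.

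Clec4f and Vsig4, the other receptors that mark Kupffer cells, did not share the order of Cd5l. Clec4f (ENSMUSG00000014542, chr6:83644542-83656187, minus strand), a C-type lectin receptor found in mice on Kupffer cells, was at 5.36, 16.1 and 18.5 FPKM in the NC-chow group, 1.89, 9.76 and 18.5 in the IVF-chow group and 33.8, 7.28 and 2.21 in the FET-chow group. The highest mouse of all and 1 of the lowest were both in the FET-chow group, and the 3 groups overlapped. The mean was 13.3 ± 7.01 in NC-chow, 10.1 ± 8.31 in IVF-chow and 14.4 ± 17.0 in FET-chow mice (SD, n = 3), and these do not differ beyond their spread. The log2 fold change was -0.40 ± 0.90 (SE) for FET-chow against NC-chow, with a 95% interval from -2.22 to 1.42 (adjusted p in limma 0.902), so that the difference of the log values and that of the means had opposite signs. Its direction turned to 0.15 after rescaling.

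Vsig4 (ENSMUSG00000044206, chrX:96247203-96293438, minus strand) encodes CRIg, the complement receptor with which Kupffer cells catch opsonized bacteria. Its FPKM was 2.58, 1.87 and 2.52 in the NC-chow group, 0.456, 0.915 and 4.37 in the IVF-chow group and 1.36, 4.23 and 2.92 in the FET-chow group. The NC-chow mice lay close together, and the values of the other groups fell on both sides of them. Vsig4 was not high in FET-chow mouse 2, the mouse with the highest Clec4f, Cd5l and Marco, where it rested on an estimated 4 fragments. The log2 fold change was 0.14 ± 0.62 (SE) for FET-chow against NC-chow, -0.42 ± 0.62 for IVF-chow against NC-chow and 0.56 ± 0.62 for FET-chow against IVF-chow (adjusted p in limma 0.951, 1 and 1).

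The markers that macrophages of all tissues share varied widely between mice of 1 group. Csf1r (ENSMUSG00000024621, chr18:61100598-61132149, plus strand), the receptor for the growth factors Csf1 and Il34, was at 1.44, 2.39 and 2.04 FPKM in the NC-chow group, 0.493, 1.49 and 4.44 in the IVF-chow group and 1.74, 2.27 and 0.240 in the FET-chow group. Both the highest and the lowest mouse lay outside the NC-chow group, and the groups overlapped. After rescaling, the spread over the 9 mice narrowed from 18.5-fold to 3.64-fold, and the group means were 1.53 ± 0.21, 1.53 ± 0.36 and 1.41 ± 0.76 (SD, n = 3). The log2 fold change against NC-chow was -0.39 ± 0.61 (SE) for FET-chow and -0.10 ± 0.61 for IVF-chow, with 95% intervals from -1.62 to 0.84 and from -1.33 to 1.13. The gene overlaps Hmgxb3 on the other strand, and whether the counting used strand is not given in the sources used here.

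Adgre1 (ENSMUSG00000004730, chr17:57358691-57483527, plus strand) encodes F4/80, the antigen by which mouse macrophages are usually recognized, and was with Marco among the 2 lowest of the 9 markers. It was listed at 0, 0.247 and 0.211 FPKM in the NC-chow mice, 0.126, 0 and 0 in the IVF-chow mice and 0.931, 0.112 and 0 in the FET-chow mice. At most an estimated 9 fragments lay behind a value, and the highest value rested on 6. The difference in mean log2(FPKM + 1) was 0.17 for FET-chow against NC-chow, -0.14 for IVF-chow against NC-chow and 0.31 for FET-chow against IVF-chow (two-sided exact permutation p = 0.9, 0.4 and 0.7). With 3 mice against 3, this test cannot give a p below 0.1.

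Cd68 (ENSMUSG00000018774, chr11:69664213-69666153, minus strand) encodes a glycoprotein of macrophage lysosomes. It was listed at 0, 2.27 and 2.84 FPKM in the NC-chow mice, 0.928, 4.40 and 3.69 in the IVF-chow mice and 0, 3.66 and 0.827 in the FET-chow mice. FET-chow mouse 2 was thus listed at 0 for Cd68 while it had the highest value of Clec4f, Cd5l, Marco, Adgre1 and Lyz2. The log2 fold change was -0.19 ± 0.65 (SE) for FET-chow and 0.65 ± 0.65 for IVF-chow against NC-chow (adjusted p in limma 0.935 and 1), and the FET-chow value was 0.33 without FET-chow mouse 2 and 0.18 after rescaling.

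Lyz2 (ENSMUSG00000069516, chr10:117277331-117282321, minus strand), the lysozyme of myeloid cells, was at 7.90, 4.94 and 4.67 FPKM in the NC-chow group, 1.29, 11.9 and 15.1 in the IVF-chow group and 26.0, 19.2 and 0.791 in the FET-chow group. In both embryo transfer groups 2 mice were above every NC-chow mouse and 1 was below. After rescaling the values were 8.48, 3.60 and 3.01 in the NC-chow group, 3.32, 10.98 and 6.60 in the IVF-chow group and 28.7, 15.0 and 1.76 in the FET-chow group, so this order held for the FET-chow mice and not for the IVF-chow mice. As deposited, the low mice were IVF-chow mouse 2 and FET-chow mouse 4, the libraries with the lowest share of nuclear protein-coding FPKM, and the FET-chow mouse 4 value rested on an estimated 3 fragments. The mean was 5.83 ± 1.79 in NC-chow, 9.43 ± 7.22 in IVF-chow and 15.3 ± 13.0 in FET-chow mice (SD, n = 3), an order in which neighbours do not differ beyond their spread. The log2 fold change of FET-chow against NC-chow was 0.57 ± 0.89 (SE; adjusted p in limma 0.839), and it was -0.15 without FET-chow mouse 2. The near copy Lyz1 was listed at 0 in 7 of the 9 mice and at no more than 0.328 FPKM in the others, and fragments that the copies share make the Lyz2 values less certain.

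Cd74 (ENSMUSG00000024610, chr18:60803848-60812652, plus strand) encodes the invariant chain that guides MHC class II molecules to the endosome, and is shared by macrophages, dendritic cells and B cells. Its FPKM was 9.78, 14.7 and 9.66 in the NC-chow group, 1.06, 17.6 and 27.9 in the IVF-chow group and 11.1, 14.3 and 4.46 in the FET-chow group. The lowest and the highest mouse were both in the IVF-chow group. After rescaling the FET-chow mice lay between 9.91 and 12.2, within the NC-chow and IVF-chow range of 2.72 to 16.2. The log2 fold change was -0.28 ± 0.90 (SE) for FET-chow and -0.24 ± 0.90 for IVF-chow against NC-chow (adjusted p in limma 0.929 and 1). Rescaling turned the FET-chow value to 0.28.

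Set side by side, the comparisons gave no called marker. For FET-chow against NC-chow, 0 of the 7 markers tested had an adjusted p under 0.05 in limma, against 0.237% of all genes tested, and 0 had an unadjusted p under 0.05, against 12.0%. The corresponding shares of all genes for IVF-chow against NC-chow were 0.0592% and 4.07%, and for FET-chow against IVF-chow 0.0888% and 4.01%, with 0 of 7 markers in each. These counts are for FPKM as deposited. After rescaling, Cd5l was under an unadjusted p of 0.05 for FET-chow against NC-chow (log2 fold change 1.88, unadjusted p 0.0108 and adjusted p 0.207 in limma, with 16.7% of all genes under 0.05) and for FET-chow against IVF-chow (1.82, unadjusted p 0.0126 and adjusted p 0.417, with 9.43%), and for IVF-chow against NC-chow it was 0 of 7 markers (5.43%). Median-ratio scaling gave Cd5l unadjusted p of 0.0082 and 0.0121 (adjusted p 0.187 and 0.379 in limma), with 17.0% and 9.58% of all genes under 0.05, and for IVF-chow against NC-chow it was 0 of 7 markers (5.71%). The median log2 fold change of the 7 markers was -0.19, -0.15 and 0.20 in the 3 comparisons in that order, beside -0.46, -0.25 and -0.20 for the whole set of 6755. The rescaled values moved the all-gene medians to -0.06, -0.07 and 0.02 and those of the markers to 0.28, -0.0078 and 0.50. The marker median stood above the all-gene median in the 3 comparisons on both of these scales. It did not for FET-chow against IVF-chow without FET-chow mouse 2 (-0.32 beside -0.25) or for IVF-chow against NC-chow with no filter (-0.14 beside -0.01) or with NC-chow mouse 1 alone (-0.04 beside 0.04), while its own sign depended on the scale for FET-chow against NC-chow and, with 0.06 under median-ratio scaling, for IVF-chow against NC-chow. For each gene the FET-chow against IVF-chow value is the FET-chow against NC-chow value minus the IVF-chow against NC-chow value. The 3 comparisons also share mice, so their values are not independent. Among the 7 markers tested on FPKM as deposited, the lowest unadjusted p was that of Cd5l for FET-chow against IVF-chow, with a log2 fold change of 1.49 ± 0.79 (SE), and a 95% interval from -0.10 to 3.08 (unadjusted p 0.0657, adjusted p 1 in limma). In that comparison 2 of the 3 FET-chow mice were above every IVF-chow mouse. Higher or lower values in every mouse of a group than in every mouse of the other were seen in no marker for IVF-chow against NC-chow (0.77% and 5.46% of all genes as deposited, 4.87% and 11.3% rescaled) or for FET-chow against IVF-chow (1.27% and 2.56% as deposited, 6.72% and 6.01% rescaled).

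**Figure D3:**
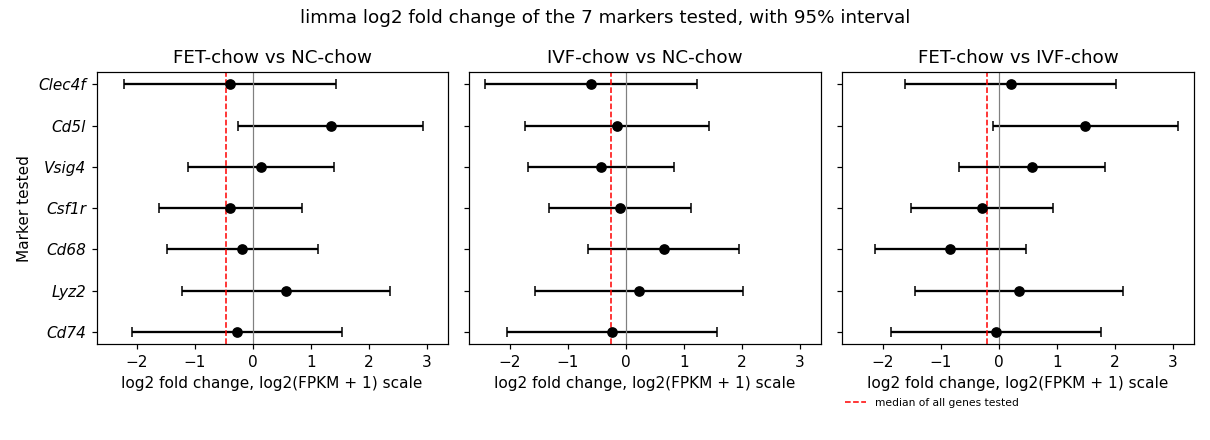
Log2 fold change (horizontal axis, log2(FPKM + 1) scale) of the 7 markers tested in each comparison, with limma 95% intervals as bars, 0 as a grey line and the median of all genes tested as a dashed red line. Every interval includes 0, and Cd5l lies farthest to the right for FET-chow against NC-chow (1.34) and against IVF-chow (1.49).

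The markers did not keep a fixed ratio to each other, and a ratio within a library does not depend on how the library was scaled. Cd5l relative to Clec4f was 0.702, 0.235 and 0.266 in the NC-chow mice, 0.548, 0.755 and 0.259 in the IVF-chow mice and 1.09, 1.10 and 2.46 in the FET-chow mice. All 3 FET-chow mice were above all 6 others, an order found in the ratios to Clec4f of 12 of 6754 genes tested (0.178%), Cd5l included. This ratio was chosen after its values were seen and is given without a test, and in FET-chow mouse 4 it rested on an estimated 32 fragments of Cd5l and 16 of Clec4f. Cd5l relative to Csf1r was 2.62, 1.59 and 2.41 in the NC-chow mice, 2.10, 4.93 and 1.08 in the IVF-chow mice and 21.1, 3.52 and 22.6 in the FET-chow mice. Here FET-chow mouse 3 lay below IVF-chow mouse 3, and the Csf1r value of FET-chow mouse 4 rested on 3 fragments. Cd5l relative to Vsig4, to Lyz2 or to Cd74 did not set all FET-chow mice above all others either. The order seen with Clec4f thus depended on the marker used as the divisor. The ratios of Cd74, Vsig4 and Csf1r to Clec4f overlapped between the groups, with Vsig4 at 0.040 to 1.32 in the FET-chow mice alone. Lyz2 relative to Clec4f overlapped as well, at 0.252 to 1.47 in the NC-chow mice, 0.681 to 1.22 in the IVF-chow mice and 0.357 to 2.64 in the FET-chow mice.

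The highest values gathered in 1 mouse. FET-chow mouse 2 was highest for 5 markers, IVF-chow mouse 4 for Vsig4, Csf1r and Cd74, and IVF-chow mouse 3 for Cd68. IVF-chow mouse 2 was lowest for Clec4f, Cd5l, Vsig4 and Cd74. After rescaling the same 5 markers were highest in FET-chow mouse 2, but Vsig4 was highest in FET-chow mouse 4 (6.47) and Cd74 in IVF-chow mouse 3 (16.2), and Cd5l was lowest in IVF-chow mouse 4 (2.10) and Vsig4 in IVF-chow mouse 3 (0.843). The summed FPKM of the 9 markers ranged from 7.34 in IVF-chow mouse 2 to 115 in FET-chow mouse 2, and between 30.8 and 46.5 in the NC-chow mice. After rescaling the sum was 29.3 to 33.9 in the NC-chow mice, 18.9 to 49.3 in the IVF-chow mice and 37.5, 47.8 and 127 in the FET-chow mice. On that scale every FET-chow sum was above every NC-chow sum, which did not hold with median-ratio scaling (FET-chow mouse 4 at 33.6, NC-chow mouse 5 at 34.6), and 1 IVF-chow sum was above 2 of the FET-chow sums. FET-chow mouse 2 had the shallowest library by mapped fragments, with 1980000 of them and 8071 genes above 0. On nuclear protein-coding genes the estimate was lowest in FET-chow mouse 4 (240000, against 330000 in FET-chow mouse 2).

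**Figure D4:**
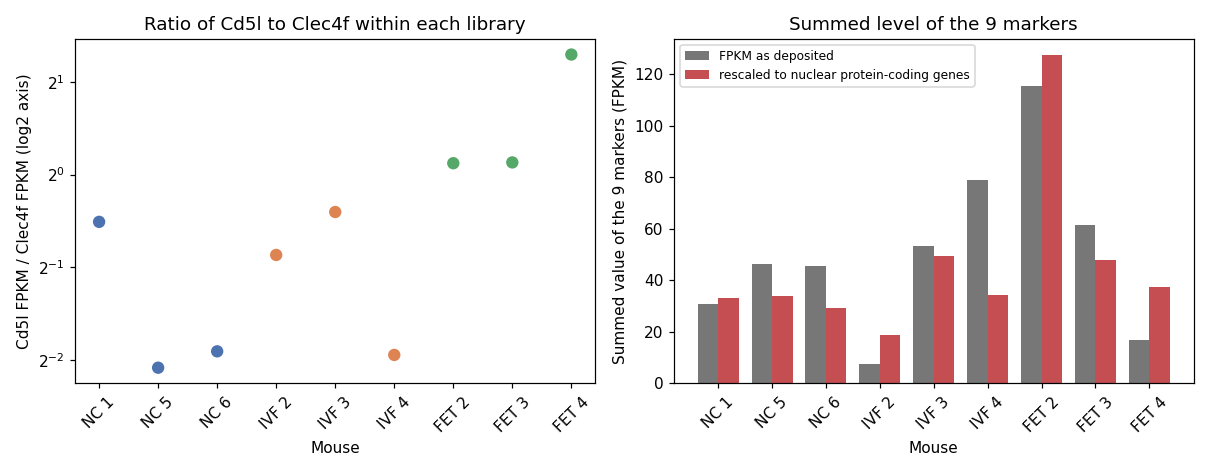
Left, FPKM of Cd5l divided by FPKM of Clec4f in each mouse (log2 axis), coloured by group; right, the summed value of the 9 markers in each mouse (FPKM, axis from 0) as deposited and after rescaling to nuclear protein-coding genes. The 3 FET-chow ratios, from 1.09 to 2.46, lie above the 6 others, whose highest is 0.755, and the sum is highest in FET-chow mouse 2 on both scales.

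Other genes of the same cells were taken from lists of known markers. Of 23 other Kupffer cell genes 13 were tested, and 0 were called in any comparison by limma, with 0 at an unadjusted p under 0.05. For FET-chow against NC-chow, 4 had a positive and 9 a negative log2 fold change, with a median of -0.23. After rescaling 8 were positive and 5 negative, with a median of 0.17. The most abundant were Cfp, C6, C1qa, Fcna and Nr1h3. Cfp, which encodes the complement activator properdin, was at 10.7, 7.40 and 7.67 FPKM in the NC-chow group, 1.22, 19.6 and 21.4 in the IVF-chow group and 53.5, 19.4 and 7.57 in the FET-chow group. C6, a component of the terminal complement complex that hepatocytes express as well, was at 11.9, 14.4 and 21.7 in the NC-chow group, 10.5, 14.5 and 25.3 in the IVF-chow group and 4.93, 20.9 and 9.16 in the FET-chow group. C1qa, a chain of the complement component C1q, was at 4.87, 10.1 and 9.12 in the NC-chow group, 2.32, 17.0 and 19.5 in the IVF-chow group and 11.8, 8.27 and 0.998 in the FET-chow group. As deposited, Cfp alone of these 3 genes was highest in FET-chow mouse 2, where C6 was at its lowest of the 9 mice. C6 and C1qa were highest in IVF-chow mouse 4. Fcna, the gene of ficolin A, and Nr1h3, the gene of the nuclear receptor LXR alpha, were also highest there as deposited (18.5 and 15.3, against 13.8 and 11.9 in FET-chow mouse 2). After rescaling, Fcna and Nr1h3 were highest in FET-chow mouse 2, C6 in IVF-chow mouse 2 and C1qa in IVF-chow mouse 3. On that scale Cfp was higher in every FET-chow than in every NC-chow mouse, an order shown by 9.99% of genes tested. The summed FPKM of the list overlapped between NC-chow (60.5 to 96.6) and FET-chow mice (41.0 to 125), while the rescaled sum did not (62.2 to 65.0 against 83.8 to 137), with the IVF-chow mice between 64.9 and 97.2. Nor did the sum overlap between these groups under median-ratio scaling (62.7 to 65.5 against 81.5 to 113), with the IVF-chow mice between 74.6 and 92.8.

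Among 24 general macrophage and myeloid genes 13 were tested and 0 called by limma. For FET-chow against NC-chow 4 of them were positive and 9 negative, with a median of -0.42 (0.10 after rescaling), and the 1 with an unadjusted p under 0.05 was Grn (log2 fold change -1.82, adjusted p 0.269). For IVF-chow against NC-chow it was Ctss alone (-1.25, adjusted p 1). Tyrobp, the adaptor of many activating myeloid receptors, was at 59.6 FPKM in FET-chow mouse 2 and between 0.71 and 11.3 in the other mice. After rescaling, every FET-chow value of Tyrobp lay above every NC-chow and IVF-chow value. Of all genes tested, 9.99% were in that order against NC-chow and 6.72% against IVF-chow. Ctsd and Ctsb, which encode lysosomal proteases and are expressed in hepatocytes as well, were not high in FET-chow mouse 2 as deposited, at 25.03 and 9.20. The summed FPKM of this list overlapped between NC-chow (80.7 to 115.7) and FET-chow mice (27.7 to 162). It overlapped after rescaling too (74.2 to 86.7 against 61.5 to 179), and under median-ratio scaling (75.1 to 86.1 against 55.04 to 147).

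Genes that work with Csf1r and Cd74 had negative medians on both scales. Of 12 genes for ligands, adaptors and factors of the Csf1r pathway 4 were tested, Cebpb, Cebpa, Grb2 and Pik3r1, and all 4 log2 fold changes for FET-chow against NC-chow were negative, with a median of -0.78 (-0.38 after rescaling, with 3 of 4 negative) and 0 called. The ligand gene Csf1, under the test's limit, was at 1.46, 1.28 and 0.78 FPKM in the NC-chow mice. It was at 0.32, 0.89 and 1.47 in the IVF-chow mice and at 0, 0.75 and 0 in the FET-chow mice. Its FET-chow values lay below its NC-chow values as deposited, as in 17.1% of genes tested, and the 2 groups overlapped after rescaling. Of 13 partners of Cd74, most of them genes of MHC class II presentation, 6 were tested. Again all 6 were negative, with a median of -0.87 (-0.42 after rescaling, with 5 of 6 negative) and 0 called. Among them Mif, which is not a gene of class II presentation, was at -2.15 and the class II chain H2-Eb1 at -0.22. H2-Ab1, a class II chain, ranged from 1.998 to 5.55 over the NC-chow mice, and the FET-chow mice, at 1.37, 1.54 and 2.68, overlapped them. Cebpa, Cebpb and Mif are expressed in hepatocytes too, and the 10 hepatocyte markers had a median of -1.35 (-0.71 after rescaling) in the same comparison. All these medians stand beside the all-gene median of -0.46 as deposited and -0.06 after rescaling.

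Markers of other cells were followed beside these results. Of 13 markers of monocytes and recruited macrophages 3 were tested and 0 called, and the 1 with an unadjusted p under 0.05 was Spp1 for IVF-chow against NC-chow (log2 fold change -1.61, adjusted p 1 in limma), which cholangiocytes express as well. Their summed FPKM was 13.1 to 19.8 in the NC-chow mice, 2.74 to 18.1 in the IVF-chow mice and 4.29 to 14.8 in the FET-chow mice, and 1 marker was listed at 0 in every mouse. The 7 neutrophil markers summed to 1.23 to 3.02 in the NC-chow mice, 0.309 to 13.0 in the IVF-chow mice and 0.289 to 2.09 in the FET-chow mice, where Csf3r was the 1 marker above 0. No marker of dendritic cells, or of T and NK cells, reached the limit for testing. The rescaled sum of the stellate cell markers was 17.7 to 26.1 in the NC-chow mice, 27.4 to 53.9 in the IVF-chow mice and 50.3 to 78.1 in the FET-chow mice, and in FET-chow mouse 2 Ecm1 alone gave 64.7 of the 70.8 FPKM as deposited. Of the 5 stellate markers tested, 0 were called. For FET-chow against NC-chow their log2 fold changes were 1.495 (Ecm1), 0.09 (Dcn), 0.01 (Col3a1), -0.42 (Colec11) and -0.63 (Des), and for FET-chow against IVF-chow 4 of the 5 were negative. After rescaling, 4 of the 5 were positive against NC-chow (median 0.47) and 3 of the 5 negative against IVF-chow. For IVF-chow against NC-chow all 5 were positive, with a median of 0.33 as deposited and 0.62 after rescaling. Of all genes tested, 68.9% and 55.8% were negative in that comparison on these scales. Red cell markers summed to 335 to 850 in the NC-chow mice, 78.0 to 388 in the IVF-chow mice and 177 to 591 in the FET-chow mice, and the rescaled IVF-chow sums (170 to 227) lay below those of the NC-chow (245 to 913) and FET-chow mice (394 to 634). The part of Ecm1, of library depth and of the protein-coding share in the Cd5l values was not tested. Across all 14 other lists, with 154 genes of which 65 were tested, 0 genes were called in any of the 3 comparisons.

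The genes whose pattern over the 9 mice was most like that of the markers were found by correlating each of 5730 protein-coding genes with the mean log2(FPKM + 1) of the 7 markers tested. The highest values were those of Fau (Pearson r = 0.995), Stard10 (0.992), Bckdha (0.992), Eif3k (0.986) and Uqcrc1 (0.986). The median r over all these genes was 0.625, and the points share library composition and depth. After rescaling the median was 0.0111, and Fau (0.989), Bckdha (0.962), Irf7 (0.953), Cab39l (0.951) and Stard10 (0.949) were highest. The 9 points include the 3 groups, and the correlations are given as a description.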

How the data were processed

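Hepatic RNA of 9 mice was analysed, grouped by the sample labels. The authors deposited FPKM values for 55335 genes, of which 55154 matched the GENCODE vM21 annotation of GRCm38 by identifier. The authors' build and counting settings are not given in the sources used here. The submitters' processing notes list FastQC 0.11.5, STAR 2.5.3a, StringTie 1.3.1c and DESeq2 1.16.1. The values are not counts, so log2(FPKM + 1) was tested with limma 3.58.1 in R 4.3.3, in 1 fit of 3 groups with a trend on the mean, over the 6755 genes whose mean FPKM was 1 or more. Tests were two-sided, and a Benjamini-Hochberg adjusted p under 0.05 counted as called. Marco and Adgre1 were tested by exact permutation (scipy 1.17.1).

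Mapped fragments were estimated from the steps of low FPKM values, up to 8 fragments with a tolerance of 2%. Between 42.1% and 53.9% of the low values lay on a step, against 4% by chance. In simulated data of 6755 genes for FET-chow against NC-chow, with 200 genes changed in each of 10 draws, a log2 change of 3 was recovered in 56.4% of them and of 6 in 98.2%.

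The members and lists were chosen with earlier results of these data known. All members were named, with up to 5 genes of each other list by mean FPKM and the 5 genes most like the members. Alternatives tried were log2(FPKM + 0.1), all genes above 0, median-ratio scaling, rescaling to nuclear protein-coding genes, a fit of only the groups compared, NC-chow mouse 1 as the sole NC-chow mouse, the mouse number as a block, and leaving out each mouse. NC-chow mouse 1 has the number nearest to those of the other groups in the sample names (67, against 71 to 76), and NC-chow mice 5 and 6 have 116 and 117, whose meaning the labels do not give. Litters are not given, so p-values measure the spread between these mice.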

Additional observations from a re-analysis of the deposited data

How the results depend on the processing

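No marker was called under any alternative, and the lowest adjusted p of a marker in limma was 0.187 for FET-chow against NC-chow, 0.667 for IVF-chow against NC-chow and 0.379 for FET-chow against IVF-chow. Cd5l and Marco stayed positive for FET-chow against both other groups in every setting run. They were singled out for their high FET-chow values in these same mice, so the stable sign is not separate evidence. The number of changed genes among all genes was 16 for FET-chow against NC-chow (0 with no filter, 0 with only the 2 groups, 6 with NC-chow mouse 1 alone, 1 to 83 leaving out a mouse), 4 for IVF-chow against NC-chow (0 with the pseudocount of 0.1, no filter, median-ratio scaling, rescaling or only the 2 groups, 2 with NC-chow mouse 1 alone, 0 to 24 leaving out a mouse) and 6 for FET-chow against IVF-chow (0 with no filter and with only the 2 groups, 0 to 10 leaving out a mouse). With the mouse number as a replicate block it was 2 genes for FET-chow against IVF-chow. The deviations of mice with the same number correlated at -0.13, 0.02 and -0.26, and those of mice with different numbers at -0.14 to 0.29. Deviations from a mean of 3 mice depend on each other, so these values cannot decide whether the numbers pair the mice. Reversed log2 fold changes were, for FET-chow against NC-chow, Clec4f (0.024 median-ratio, 0.15 rescaled, 0.62 NC-chow mouse 1 alone), Cd68 (0.16, 0.18 and 1.0305) and Cd74 (0.16 median-ratio, 0.28 rescaled). For IVF-chow against NC-chow they were Cd5l (0.12 median-ratio, 0.054 rescaled), Marco (0.029, 0.021 and, with NC-chow mouse 1 alone, 0.029), Adgre1 (0.0070 median-ratio, 0.057 NC-chow mouse 1 alone), Csf1r (0.056 and 0.16), Cd74 (0.014 median-ratio), and with NC-chow mouse 1 alone Clec4f (0.41) and Lyz2 (-0.19). For FET-chow against IVF-chow it was Cd74 (0.15 median-ratio, 0.12 pseudocount 0.1, 0.35 rescaled). Leaving out a mouse gave, for FET-chow against NC-chow, ranges of -1.32 to 0.40 (Clec4f), -0.12 to 0.45 (Vsig4), -0.12 to 0.35 (Adgre1), -0.67 to 0.032 (Csf1r), -0.79 to 0.33 (Cd68), -0.15 to 1.80 (Lyz2), -0.58 to 0.16 (Cd74) and 0.57 to 1.84 (Cd5l). For IVF-chow against NC-chow they were -1.20 to 0.17 (Clec4f), -0.58 to 0.44 (Cd5l), -0.60 to 0.33 (Csf1r), -0.30 to 1.11 (Lyz2) and -0.98 to 0.93 (Cd74). For FET-chow against IVF-chow they were -0.72 to 1.004 (Clec4f), -0.72 to 0.21 (Csf1r), -0.54 to 1.58 (Lyz2) and -1.21 to 0.70 (Cd74). The median of the markers tested ranged from -0.37 to 0.18, from -0.60 to 0.44 and from -0.57 to 0.81 in the 3 comparisons. Of the values recomputed per comparison, 17 of 106, 19 of 106 and 13 of 104 were reversed, and the cause was not tested. Depth limits Marco and Adgre1 most, whose values rest on at most 14 and 9 fragments.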

Other observations

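Among the lists of other liver cells, none of whose genes was called by limma in any comparison, hepatocyte markers had the lowest median for FET-chow against NC-chow of those with at least 5 genes tested. In that comparison, 9 of the 10 hepatocyte markers had a negative log2 fold change, with a median of -1.35, and after rescaling to nuclear protein-coding genes it was 7 of 10 with a median of -0.71. Of all genes tested, 74.4% were negative as deposited and 53.4% after rescaling. The 3 endothelial markers tested had a median of -0.25 as deposited and 0.27 after rescaling. Both B cell markers tested, Igkc and Ighm, were negative on both scales (medians -1.35 and -0.96), and Ighm was listed at 0 in FET-chow mouse 4. Ighm had an unadjusted p under 0.05 (log2 fold change -1.61, adjusted p 0.355 in limma).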
